A study of Mus musculus with 28 samples.

Results

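Starved SirT7-/- mouse embryonic fibroblasts (KO-GS) were compared with starved wild-type fibroblasts (WT-GS) by the chromatin state assigned to each 200 bp bin of chromosomes 1 to 19. These chromosomes held 12361703 of the 13274547 bins of the deposited segmentations. The segmentations of the starved pair rested on 10 of the series' 28 libraries. Each genotype had 2 H3K27me3 libraries, 2 mH2A1 (macroH2A1.1) libraries and 1 input library, which the authors combined into 1 segmentation per group. All cells were primary fibroblasts of strain 129s2 at passages 3 to 4, and the KO cells differed from WT by the SirT7-/- genotype. The labels give the treatment only as GS or NT, and the series title concerns glucose starvation. The time and medium of starvation were not stated in these sources. The segmentations of cells labelled NT, 1 per genotype from 10 other libraries, shared no library with the starved pair and served as the same measurement in separate samples.

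With 1 segmentation per group there were no replicates, so no test between genotypes was made. Errors are the standard deviation (SD) over the 19 autosomes, which shows how evenly a difference lay along the genome and not how it would vary between cultures. Neighbouring bins are not independent of each other. The read depth behind the segmentations was unknown. They hold no signal at Sirt7, so the knockout itself could not be checked in them.

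H3K27me3 is laid down by Polycomb repressive complex 2 and lies broadly over silent developmental regulator genes. MacroH2A1.1 is a splice form of a histone H2A variant whose macrodomain binds ADP-ribose, and the variant is found in wide domains of silent chromatin, often together with H3K27me3. SIRT7 is an NAD-dependent deacylase of the nucleus, best known at ribosomal DNA, and the series concerns its ADP-ribosylation and macroH2A1.1 under glucose starvation.

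The 4 states carry only the names U1 to U4. No source used here says what each stands for, or whether a state was defined alike in every segmentation. The initial 3 Mb of each autosome, a gap in the mm9 assembly, was U1 in all but 2 bins of KO-GS and in all bins of WT-GS, so U1 includes sequence without reads. U2, U3 and U4 together are called marked below, as a short name only. The listed loci gave each state a setting. The Hoxa, Hoxb, Hoxc and Hoxd clusters, which pattern the body axis and are classic Polycomb targets, were 85.1% to 87.8% U3 in WT-GS. Col1a1 and Fn1, which encode the matrix proteins collagen I and fibronectin made by fibroblasts, were 100% U1 in all 4 segmentations, as were the housekeeping genes Actb and Gapdh. The other listed fibroblast genes were U1 only in part. In WT-GS Col1a2 was 92.8% U1, Vim 83% and Thy1 70%, and Thy1 also held 14% U2 and 16% U3. U2 was the widespread state, at 20.9% of bins in WT-GS, and U4 a rare state at 1.71%, of whose segments 60.2% were a single bin.

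The starved KO cells had less U2 and more U1. U2 covered 20.9% of bins in WT-GS and 17.6% in KO-GS, a difference of -3.30 percentage points (SD over chromosomes 0.87, n = 19). In length this was 516.8 Mb against 435.1 Mb, or 0.842 times the WT length. The U2 share was lower in KO-GS on 19 of 19 autosomes, from -4.78 percentage points on chromosome 3 to -1.52 on chromosome 7. U1 took up nearly the same amount, from 69.0% to 72.3% of bins, and was higher on 19 of 19 autosomes. U3, the state of the Hox clusters, was at 8.40% and 8.23%, lower on 16 autosomes and higher on 3. Its mean difference of -0.18 percentage points over chromosomes was close to their SD of 0.16. U4 was at 1.71% in WT-GS and 1.85% in KO-GS, 1.09 times the WT length, and higher on 19 of 19 autosomes.

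**Figure D1:**
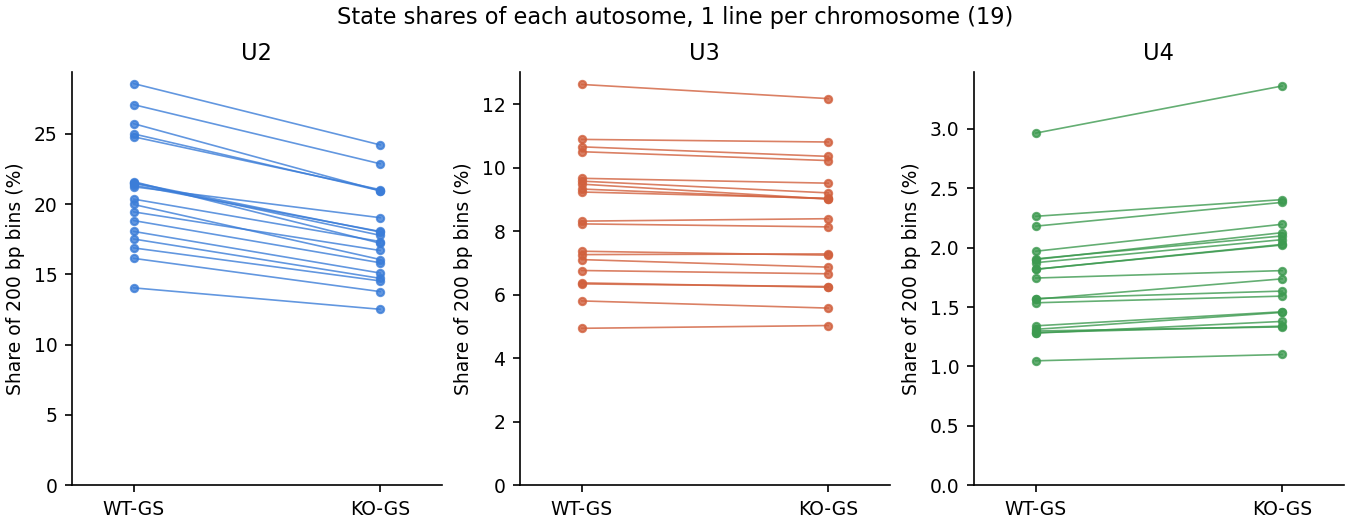
Share of 200 bp bins (%) in states U2, U3 and U4 on each autosome in WT-GS and KO-GS, with 1 line per chromosome. All 19 lines slope down for U2 and up for U4, while the U3 lines are nearly level, with 16 down and 3 up.

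In all, 1218123 bins (243.6 Mb) had a different state in KO-GS, which is 9.85% of bins. Chromosome 7 had the lowest share (7.55%) and chromosome 13 the highest (11.4%), with an SD of 1.00 percentage points over chromosomes. Cohen's kappa, the agreement beyond that given by the state shares, was 0.784 and ran from 0.752 to 0.817 over chromosomes. Of the differing bins, 53.0% went from marked in WT-GS to U1 in KO-GS, 19.3% went from U1 to marked, and 27.7% changed between marked states. U1 was the best kept state, with 97.2% of its WT-GS bins still U1 in KO-GS. The kept share was 78.5% for U3, 73.7% for U2 and 62.3% for U4. Many of the U4 bins not kept lay close to U4 of the other genotype, and 84.4% of WT-GS U4 bins had a KO-GS U4 bin within 5 bins.

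One exchange made up most of the imbalance. U2 in WT-GS became U1 in KO-GS in 554812 bins (111.0 Mb), which is 45.5% of all differing bins and 21.5% of WT-GS U2. The reverse, U1 to U2, covered 35.4 Mb, so the exchange was 3.13 times larger toward U1. That ratio was above 1 on 19 of 19 autosomes and ran from 2.20 on chromosome 11 to 4.02 on chromosome 16. The other pairs were closer to balance. U3 to U1 covered 17.2 Mb against 10.7 Mb for the reverse (1.60 times). U2 to U3 covered 19.6 Mb against 14.2 Mb (1.38 times), so U3 received from U2 while it gave to U1. U3 to U4 covered 13.2 Mb against 10.2 Mb (1.3 times). Each of these 3 ratios was also above 1 on 19 of 19 autosomes.

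**Figure D2:**
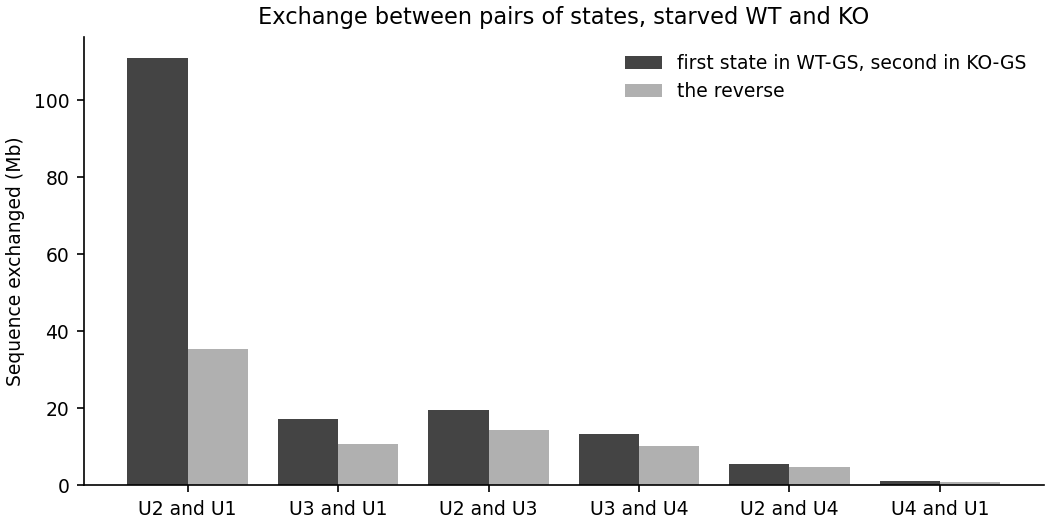
Sequence (Mb) whose state was exchanged between each pair of states, with dark bars for the first named state in WT-GS and the second in KO-GS, and light bars for the reverse. The U2 and U1 pair stands out at 111.0 Mb against 35.4 Mb, and every dark bar is taller than its light bar.

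Segment numbers and lengths were compared next. A segment is an unbroken run of 1 state, and N50 is the segment length above which lies 50% of the state's sequence. U2 had 78170 segments in WT-GS and 73552 in KO-GS, fewer on 19 of 19 autosomes. They were also shorter, with a median of 2.8 kb against 2.6 kb and an N50 of 15.6 kb against 13.2 kb. The difference was widest among broad segments. U2 segments of 100 kb or more numbered 224 in WT-GS and 128 in KO-GS, and those of 20 kb or more 5369 and 4193. Marked domains, in which adjoining U2, U3 and U4 segments were joined, kept nearly the same number (34818 and 35061) but shrank in N50 from 61.8 kb to 54.8 kb, and those of 100 kb or more numbered 1492 and 1205. U2 was thus lower in KO-GS both in number and in length of segments.

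U3 showed the other pattern, with nearly the same total length in more and shorter pieces. U3 had 87733 segments in WT-GS and 97118 in KO-GS (1.11 times), more on 19 of 19 autosomes, and its median length was 1.4 kb against 1.2 kb. Of WT-GS U3 segments, 17.2% held 2 or more separate U3 segments of KO-GS, while 11.5% of KO-GS segments held 2 or more of WT-GS. WT-GS U3 segments of 20 kb or more held 2.90 KO-GS pieces each on average, against 2.20 in the reverse direction. The greater number of U3 segments rested on short pieces: with segments under 1 kb joined to the segment before, the ratio was 0.980. U4 had 114041 and 125745 segments (1.10 times), and in U4 60.2% and 62.6% of segments were a single 200 bp bin. U4 in KO-GS often lay within U3 of WT-GS. Of the U3 bins that were U4 in KO-GS, 49.1% lay inside a WT-GS U3 segment and away from its ends, and 74.8% of these U3 to U4 runs were 1 bin long.

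Whole segments were missing from the other genotype more often in 1 direction. Of WT-GS U2 segments, 28.0% had no U2 bin in KO-GS, while 17.9% of KO-GS U2 segments had none in WT-GS. Among marked domains the shares were 22.7% and 11.7%. Longer segments were better kept. The share of WT-GS U2 bins that remained U2 was 33.3% in single-bin segments, 64.1% in segments of 2 to 4.8 kb, 78.9% at 20 kb to under 50 kb and 87.0% at 50 kb or more. Splitting rose with length, since 71.4% of WT-GS U2 segments of 50 kb or more were split in KO-GS, against 8.94% of those of 2 to 4.8 kb. Both gradients were also present in reverse. KO-GS U2 segments of 50 kb or more were split in WT-GS in 46.8% of cases, and those of 2 to 4.8 kb in 8.55%. Their kept shares were 97.8% and 77.3%. A longer segment has more bins at which it can be split, and a segment of 1 bin cannot be split. The rise with length was therefore not a test of break-up in KO-GS.

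Differences were concentrated near segment borders. Of bins less than 200 bp from a WT-GS border, 39.3% had another state in KO-GS. The share fell with each class of distance, to 16.4% at 2 to 5 kb, 4.64% at 10 to 20 kb and 0.172% at 50 kb or more. Bins within 1 kb of a border made up 14.2% of all bins and 46.0% of the differing bins. When only borders of marked domains were counted, 20.1% of differing bins lay within 1 kb. These borders are fewer, and the share of all bins near them was not computed, so 20.1% cannot be set against 14.2%. U2 stayed high farthest from a border, with 44.4% of bins differing at less than 200 bp and 5.76% at 50 kb or more, where U1 was at 0.0845%. A U3 bin differed in 35.1% of cases at less than 200 bp and in 9.23% at 5 to 10 kb.

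The bins that went from U2 to U1 lay in whole segments and inside segments as well as at segment ends. Of these bins, 33.7% belonged to WT-GS U2 segments that were U1 throughout in KO-GS. A further 31.2% lay at a segment end next to U1, 21.5% were inside a segment, and 13.6% were at an end next to U3 or U4. For the reverse exchange, U1 to U2, 55.3% of bins lay at an end of a U1 segment next to a marked state and 22.6% filled a whole U1 segment. Domain edges moved both ways. Among 16875 marked domains that matched 1 to 1 between genotypes, with 33750 edges, 25.7% of edges were in the same bin, 43.8% lay inward in KO-GS by a median of 1.4 kb, and 30.6% lay outward by a median of 1.0 kb.

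What adjoined a U2 segment went with how well it was kept. U2 segments with U1 on both sides, 117.1 Mb in WT-GS, kept 58.5% of their bins as U2, and 44.6% of them were U1 throughout in KO-GS. U2 segments with U1 on 1 side kept 74.2%. Those set between U3 or U4 segments kept 80.6%, and 2.93% of them were U1 throughout. The order was the same in each of 4 length classes. At 2 to 9.8 kb the kept shares were 33.0%, 58.7% and 76.6%, and at 20 kb or more 72.6%, 83.6% and 90.04%. At like segment length, U2 with U1 on both sides was kept less than U2 next to U3 or U4. Only the length of the U2 segment was matched, not that of the marked domain around it. WT-GS marked domains of 2 to 4.8 kb kept 48.2% of their bins as marked, and those of 50 kb or more 92.3%.

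**Figure D3:**
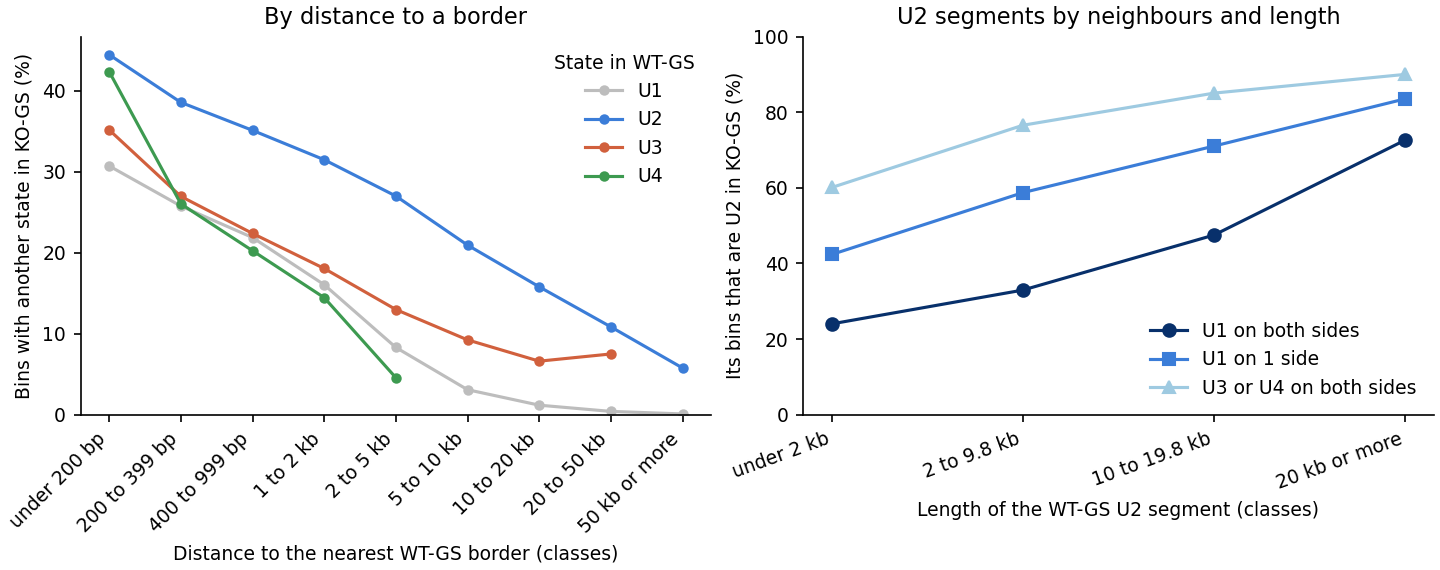
Left, the percentage of bins with another state in KO-GS by distance to the nearest WT-GS border and by WT-GS state. Right, the percentage of bins of WT-GS U2 segments that stay U2 in KO-GS, by segment length and by neighbours. U2 has the highest line on the left, from 44.4% to 5.76%, and on the right segments with U1 on both sides are lowest in each length class.

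The same order was seen along the genome in windows of 1 Mb. Windows outside the initial 3 Mb of each chromosome numbered 2406. Ordered into 5 equal parts by their WT-GS share of U3 and U4, their U2 in KO-GS was 0.651 times that of WT-GS in the part poorest in U3 and U4, then 0.739, 0.833, 0.910 and 0.968 in the richest. In percentage points the mean U2 difference was -3.42 in the poorest part, -5.99 in the next and -0.66 in the richest. The mean U4 difference was 0.57 percentage points in the richest part and 0.0034 in the poorest. Windows of the poorest part held 0.36% or less of U3 and U4 in WT-GS, so the ordering itself left little U4 there. U2 was lower in KO-GS by 10 percentage points or more in 246 windows (10.2%) and higher by as much in 0 windows (0%). By chromosome, the share of such windows ran from 4.35% on chromosome 17 to 16.8% on chromosome 16. In the 10% of each chromosome next to the centromere, U2 in KO-GS was 0.799 times that of WT-GS, and in the 10% at the far end 0.913 times. Between these ends the ratio did not rise steadily, at 0.847 in the second 10%, 0.816 in the third, 0.829 in the eighth and 0.875 in the ninth.

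The largest loss of U2 was in chr13:27000001-28000000 (mm9), where general knowledge places the prolactin family, a cluster of hormone genes expressed mostly in the placenta. U2 covered 60.5% of this window in WT-GS and 25.9% in KO-GS, with U3 and U4 at 0%, and 39.0% of its bins differed. The 605.2 kb of U2 in WT-GS lay in 22 segments with a median of 14.1 kb, and the 258.8 kb in KO-GS in 31 segments with a median of 5.4 kb. The longest WT-GS segment, 145.6 kb, was 51.9% U2 in KO-GS. In the NT pair the genotype difference in this window had the opposite sign, with U2 at 36.7% in WT-NT and 48.8% in KO-NT. The KO-GS value was below all others and the WT-GS value above all others, in a window chosen for the size of its starved difference.

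The next windows by U2 loss were chr14:101000001-102000000, with U2 at 64.3% and 35.2%, and chr5:12000001-13000000, at 58.4% and 31.9%. Their NT values were 55.6% and 51.3% on chromosome 14 and 53.7% and 55.5% on chromosome 5, for WT and KO. In each of these 3 windows the U1 share was higher by the amount that the U2 share was lower, to within 0.1 percentage points, and U3 plus U4 stayed under 2% of the window in both starved segmentations. The largest gain of U2 was much smaller, in chr12:86000001-87000000, from 27% to 33.9%. The window with the third most differing bins was chr13:25000001-26000000, where 34.2% of bins differed and U2 was at 52.2% and 35.0%.

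The windows with the largest differences in U3 or U4 held all 4 states. The largest loss of U3 was in chr19:25000001-26000000, from 38.8% to 31.7%, and the NT pair differed in the same direction there, at 35.3% and 28.6%. The largest gain of U3 was in chr9:71000001-72000000, from 17.7% to 24.3%, also with the same direction in NT, at 18.6% and 24.2%. U4 gained most in chr8:123000001-124000000, which holds Foxf1a, Foxc2 and Foxl1, forkhead transcription factor genes of mesoderm and gut development. U4 was at 20.3% in WT-GS and 25.3% in KO-GS while U3 was at 35.0% and 29.6%. In the NT pair U4 was at 24.1% and 8.68% in this window, the opposite direction. The largest U4 loss, in chr3:103000001-104000000, was from 5.48% to 3.76%, and U4 was lower in KO there in the NT pair too, at 4.68% and 2.16%.

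**Figure D4:**
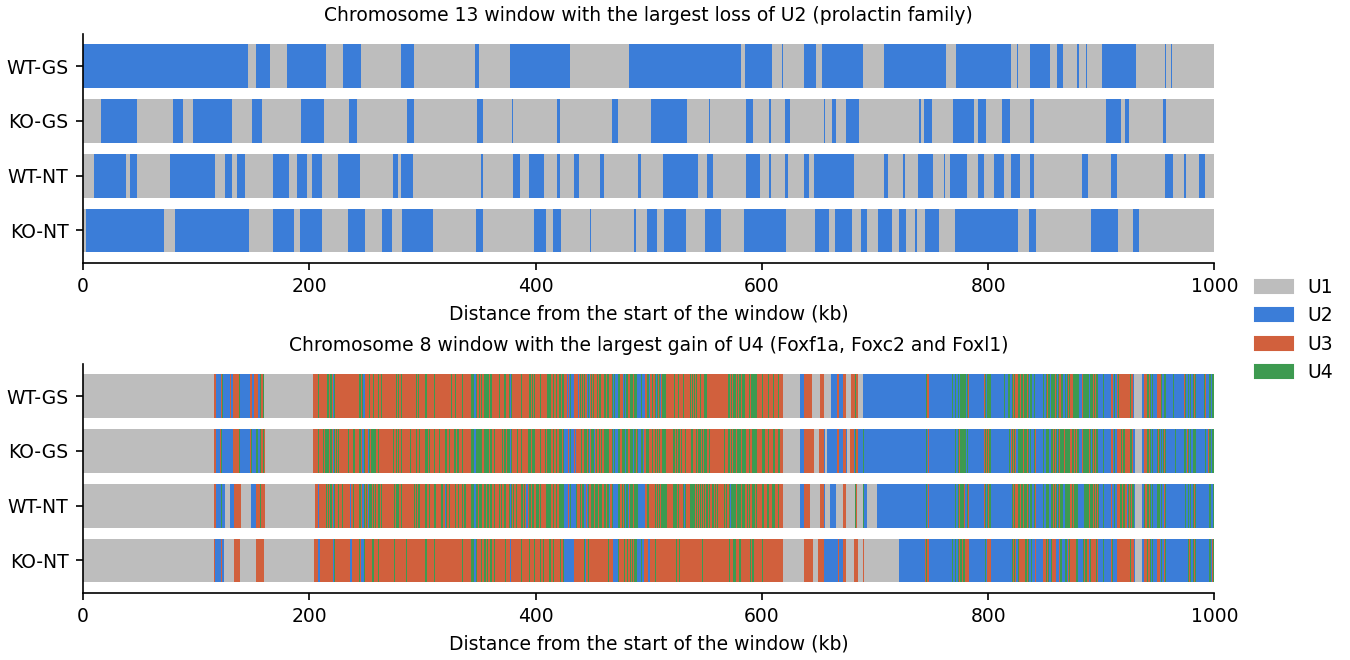
States along the 1 Mb window of chromosome 13 with the prolactin family (top) and the 1 Mb window of chromosome 8 with Foxf1a, Foxc2 and Foxl1 (bottom) in the 4 segmentations, by distance from the window's start (kb). On chromosome 13 U2 is broadest in WT-GS (60.5%) and narrowest in KO-GS (25.9%), and on chromosome 8 U4 covers 25.3% in KO-GS and 8.68% in KO-NT.

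Unbroken runs of 1 exchange were longest for U2 to U1. These numbered 27157 with a median of 2.8 kb, 2312 of them of 10 kb or more, which held 30.4% of the exchanged length. U1 to U2 runs had a median of 1.8 kb, and 244 were of 10 kb or more. The longest U2 to U1 run, chr3:50386801-50437000, was 50.2 kb and was an entire marked domain of WT-GS. In WT-NT 49% of it was U2, and in KO-NT 42.2%. The next, chr13:16163401-16211000 (47.6 kb), was also an entire domain, with 68.5% U2 in WT-NT and 29.0% in KO-NT. The third, chr8:70042001-70084600 (42.6 kb), was 54.9% and 54.5% U2 in the NT pair, and the fourth, chr2:7227601-7268800 (41.2 kb), 62.1% and 100%. The fifth, chr9:85077401-85118200 (40.8 kb), was 17.6% U2 in WT-NT and 45.1% in KO-NT. Of the 5 runs, 2 thus had less U2 in KO-NT than in WT-NT, 2 had more, and in the third run the values were within 1 percentage point.

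The longest U1 to U2 run was chr18:50173001-50198400 (25.4 kb), which was U1 throughout in both NT segmentations. U3 to U1 runs reached 11.8 kb, at chr17:67861401-67873200, which was 83.1% U3 in WT-NT and 98.3% U1 in KO-NT. The next, chr15:8472201-8483800 (11.6 kb), was 98.3% U3 in WT-NT and 87.9% U1 in KO-NT. The third, chr11:11637201-11648000 (10.8 kb), was 79.6% U3 in WT-NT and 88.9% U1 in KO-NT. At these 3 sites the same exchange was seen in both treatments. The next runs, chr8:90197401-90208000 (10.6 kb) and chr1:172445401-172455600 (10.2 kb), were instead mostly U1 in both NT segmentations, with U3 at 20.8% and 18.9% and at 19.6% in both. Over all U3 to U1 bins of the starved pair, 29.6% made the same exchange in the NT pair, against 7.86% of the bins that stayed U3. The longest U1 to U3 run, chr6:113965801-113976600 (10.8 kb), was U1 in 100% of WT-NT and 90.7% of KO-NT. Exchanges among marked states were short, with the longest U2 to U3 run at 8.2 kb, U3 to U2 at 6 kb, U3 to U4 at 4.4 kb and U4 to U3 at 2.2 kb.

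Loci placed on mm9 from general knowledge were read in a list of 12 developmental loci, 3 imprinted loci and others. Among the 12 developmental loci, U3 was higher in KO-GS in 8 and lower in 4, with a median of 1.68 percentage points. Over all 2406 windows of 1 Mb, U3 was higher in 39.5% and lower in 46.5%, with a median of 0. U2 was lower in 9 loci, higher in 1 and equal in 2, and over all windows it was lower in 74.1% and higher in 18.3%, so the loci were close to the genome in U2. The share of their bins that differed ran from 4% to 27.5% with a median of 12%. Over the genome 9.85% of all bins and 21.5% of WT-GS U3 bins differed, and most of these loci were mainly U3. Hoxd, the cluster active in limb patterning, was at 86.0% U3 in WT-GS and 92.9% in KO-GS, and U2 there was at 5.85% and 0%. Sox2, a pluripotency and neural factor, was at 84% and 94% U3. Dlx5 and Dlx6, homeobox genes of the branchial arches and skeleton, had the highest differing share (27.5%), with U4 at 21% in WT-GS and 16.5% in KO-GS. En1, a homeobox gene of the midbrain and limb, had the lowest (4%). Hoxa kept its U3 share (87.8% and 86.8%) but was cut into 43 segments in KO-GS against 24 in WT-GS, while Hoxd had 53 against 76. In the NT pair U3 was higher in KO at 12 of the 12 loci and U4 lower at 12, where over all windows U3 was higher in 55% and U4 lower in 78.8%, and both directions held on 19 of 19 autosomes.

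The 3 imprinted loci had U2 slightly higher in KO-GS, by 0.36 to 3.15 percentage points, and lower in KO-NT than in WT-NT, as in 78.4% of all windows. At Igf2 and H19, a growth factor gene and its maternally expressed noncoding neighbour, 28.9% of bins differed and U1 was at 10.5% in WT-GS and 1.82% in KO-GS. In the NT pair U1 was at 14.4% and 32.0% there. Cdkn2a and Cdkn2b, cell cycle inhibitor genes that Polycomb represses in young fibroblasts, were at 26.7% and 26.0% U3, with 20.7% of their bins differing. Both Dlk1 to Dio3 and Kcnq1 had less U3 in KO-GS, at 41.1% and 37.2% and at 35.7% and 33.8%. Igf2 and H19 had more, at 62.4% in WT-GS and 68.2% in KO-GS.

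A further 5 loci had been listed because earlier results of these data showed large differences there, so their values are only a description. Macrod2, a very long gene that encodes a macrodomain hydrolase of ADP-ribose, was at 56.7% U2 in WT-GS and 37.5% in KO-GS, and at 55.6% and 53.5% in the NT pair. Tenm4, a teneurin adhesion gene, went the other way, with U2 at 1.76% in WT-GS and 13% in KO-GS, while WT-NT and KO-NT had 46.5% and 33.5%. U2 was also higher in KO-GS at Shank2 to Fgf3 (28.5% and 30.3%) and at Tshz3 to Zfp536 (16.8% and 19.7%). Of the 5 loci, U2 was thus higher in KO-GS in 3 and lower in 2, and in the NT pair higher in KO in 1 and lower in 4. Of the fibroblast genes, Col1a2, another collagen I gene, had 0 of 250 bins differing and was 92.8% U1 in both. Vim, the intermediate filament gene vimentin, had 10 of 100 bins differing, with U2 at 17% and 27%. Thy1, a surface antigen of fibroblasts, had 2 of 50 bins differing.

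The genotype difference in the NT pair was compared to see which exchanges recurred in separate libraries. There 11.05% of bins differed, with a kappa of 0.753. The U2 share, KO minus WT, was -3.62 percentage points there and was lower in KO on 19 of 19 autosomes, close to the starved pair's figure. The places differed. Of the bins that went from U2 to U1 in the starved pair, 21.5% did so in the NT pair, where the share was 11.1% among bins that stayed U2 in the starved pair. The shared bins were 20.1% of the NT pair's U2 to U1 bins, and 12.6% of the starved pair's went the opposite way in the NT pair. Over all bins, 4.79% went from U2 to U1 in the NT pair and 1.68% from U1 to U2. U2 was lower in KO by 10 percentage points or more in 196 NT windows (8.15%) and higher in 11 (0.457%). Windows lower in both pairs numbered 30, which is 12.2% of the starved pair's 246 and 15.3% of the NT pair's 196. Of the 246 windows, 88 had more U2 in KO-NT than in WT-NT and 158 had less. Over all 2406 windows, U2 was lower in KO-NT in 1886 (78.4%). Over the 2406 windows, which share their libraries within each pair, Pearson's r between the starved and the NT differences was -0.04 for U2, 0.22 for U3 and -0.61 for U4. U4 was higher in KO on 19 of 19 autosomes in the starved pair and lower on 19 of 19 in the NT pair. Windows with little U4 can differ little in either pair, so these opposite directions alone can give a negative r. A reversal of U4 window by window was not tested.

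**Figure D5:**
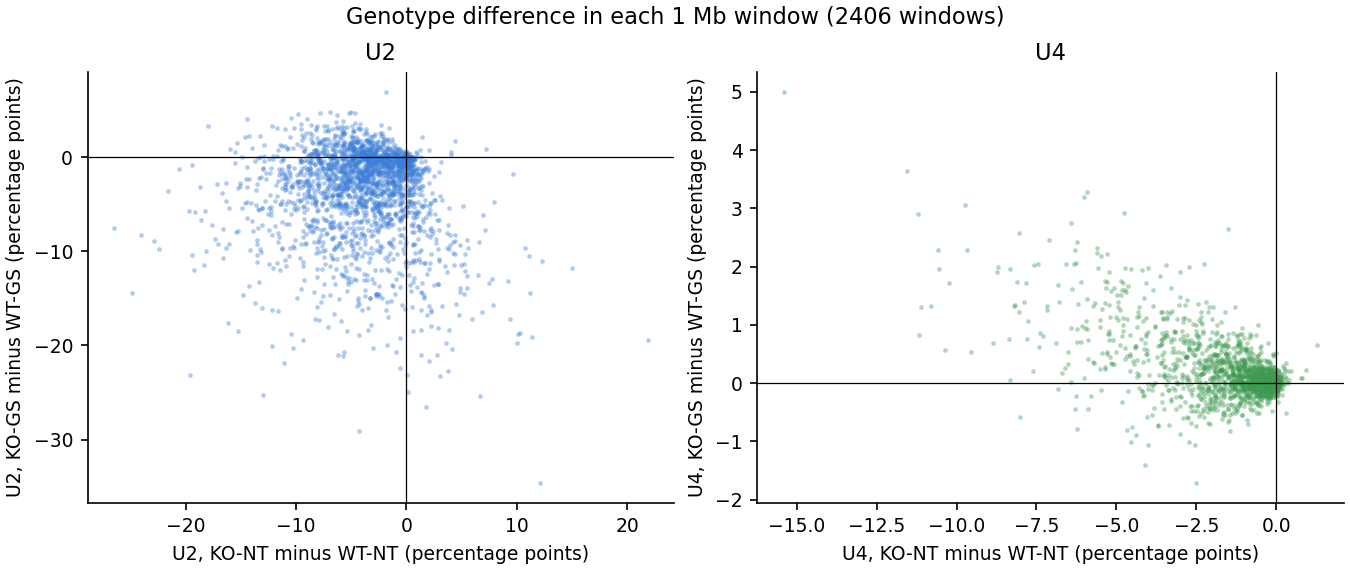
Genotype difference (KO minus WT, percentage points) in each of 2406 windows of 1 Mb in the NT pair (horizontal) and in the starved pair (vertical), for U2 (left) and U4 (right). Most U2 points lie below 0 on both axes without a slope (r = -0.04), and U4 points run from the centre to the upper left (r = -0.61).

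U3 and U4 differed in direction between the pairs. The U3 share, KO minus WT, was -0.17 percentage points under starvation and 0.60 in the NT pair, where it was higher on 19 of 19 autosomes. With chromosome X added the starved U3 difference was 0.077, so for U3 the starved direction was that of the autosomes alone. The U4 share was higher in KO by 0.15 percentage points under starvation, while KO-NT had 0.476 times the U4 of WT-NT, lower on 19 of 19 autosomes. The exchange U3 to U4 of the starved pair recurred in the NT pair in 2.84% of its bins, against 0.696% of the bins that stayed U3. It was reversed there in 36.2% of its bins. In the NT pair as a whole, U4 to U3 took 49.4% of WT-NT U4 (1.05% of all bins) and was 8.55 times its reverse. Whether the reversal was particular to these bins was not tested. No replicate was at hand to set these differences against.

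SIRT7 peaks of starved WT cells were set against the differing bins. The deposited list held 2272 peaks on the autosomes, and 85.4% of their midpoints were U1 in WT-GS, against 69.0% of all bins. The state at the midpoint differed in KO-GS for 162 peaks, which is 7.13% (95% Wilson interval 6.14 to 8.26), beside 9.85% of all bins. Intervals cover counting error only. Among the 286 peaks in WT-GS U2, 113 differed (39.5%, Wilson interval 34.0 to 45.3), against 26.3% of all U2 bins, and 105 of them became U1. U2 segments were put into 12 classes by neighbours and length, and each peak was given the differing share of all bins in its class. The mean of these shares over the 286 peaks was 25.4%, beside 39.5% for the peaks themselves. The classes did not include distance to a WT-GS border, along which the differing share of U2 bins fell from 44.4% to 5.76%. The interval also treats peaks as independent of each other, and the groups had no replicate segmentations. Whether U2 differed more at peaks than at like bins elsewhere was therefore not tested. Of the 1941 peaks in U1, 34 (1.75%) lay at bins that went from U1 to U2, close to the 2.08% of all WT-GS U1 bins.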

How the data were processed

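ChIP-seq of H3K27me3 and macroH2A1.1 (mH2A1) with input was compared in starved WT and SirT7-/- fibroblasts. The authors deposited 1 segmentation per genotype and treatment, which the labels tie to both replicates. Each names a state for every run of 200 bp bins and carries no numeric signal. The peak list for SIRT7 holds a score per peak that the authors deposited, which was not used as a measurement. Builds mm9 and hg19 and the tools deepTools 2.4.2, MACS 1.4.2, Bowtie and Trimmomatic 0.36 appear in the submitters' processing notes. The segmentation tool was not given in the sources used here. Coordinates are mm9, counted from 1.

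States were compared bin by bin in Python 3.11.15 with NumPy 2.4.6 and SciPy 1.17.1, and the counting functions were tested on simulated data. A window called lower or higher differed by 10 percentage points or more. With 1 segmentation per group no test was made, and read depth is unknown. Named windows are, for each state, the 3 of 1 Mb with the largest gain and the 3 with the largest loss, and the 3 with the most differing bins. Named runs come from the 5 longest of each exchange. Every one of 28 listed loci was read. Loci were placed on mm9 from general knowledge. A RefSeq gene table of GRCm38.p6, used without its coordinates, gave the same chromosome and gene order for all 28 and a fitting span for 27. The prolactin family was the exception, since its name pattern also matches genes elsewhere on that chromosome. Members and lists were chosen with earlier results of these data known. Alternatives were bins of 1 kb, joining segments under 1 kb, leaving out the initial 3 Mb, leaving out bins within 1 kb of a border, adding chromosome X, other borders, and other window sizes and thresholds.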

Additional observations from a re-analysis of the deposited data

Results flagged for a closer look

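U3 and U4 had opposite genotype differences in the starved and the NT pair, which was not tested, as each group had 1 segmentation. The U3 share, KO minus WT, was -0.17 percentage points in GS and 0.60 in NT, but 0.077 in GS with chromosome X added. The number of U3 segments in KO was 1.11 times that of WT in GS and 0.694 times in NT. The U4 share, KO minus WT, was 0.15 percentage points in GS and -1.11 in NT. The number of U4 segments in KO was 1.10 times that of WT in GS and 0.542 times in NT.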

How the results depend on the processing

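Of 49 alternative values, 16 stayed within the counting interval or within 1.5 times, 29 moved and 4 changed direction. With 1 kb bins, short segments joined, the initial 3 Mb left out or chromosome X added, the differing bins were 9.52%, 9.35%, 10.1% and 10.1%, and kappa was 0.790, 0.793, 0.783 and 0.775. Without bins within 1 kb of a border of WT-GS or of KO-GS, 4.50% of bins differed and kappa was 0.856. That setting removes short differing runs by construction. The U1 difference was 3.37 percentage points with short segments joined, 3.40 without the initial 3 Mb and 2.58 with chromosome X, and the U2 difference was -3.26, -3.38 and -2.90. The U3 difference was -0.11 with 1 kb bins, -0.19 with short segments joined and, with its direction changed, 0.077 with chromosome X. The U4 difference was 0.087 with 1 kb bins, 0.085 with short segments joined and 0.24 with chromosome X. The KO over WT ratio of segment numbers changed direction for U1 when bins were merged (0.985) or short segments joined (0.979), and for U3 only in the second of these settings (0.980). The share of differing bins within 1 kb of a border was 20.1% for marked domains, 44.6% for KO-GS borders and 33.5% with short segments joined. The share of all bins near the borders of these settings was not computed. Windows with lower U2 numbered 646 at 5 and 23 at 20 percentage points and 584 of 500 kb, and windows with higher U2 numbered 1 at 5 percentage points and 1 of 500 kb. The cause of these changes was not tested, beyond what each setting leaves out or adds. No paired analysis was possible because the authors combined both replicates into 1 segmentation per group, and no replicate could be left out for the same reason.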
